A study of Saccharomyces cerevisiae with 6 samples.

Results

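The 41 genes described here encode the proteins of the yeast nuclear pore complex and a small set of nuclear envelope proteins, out of 5917 genes in the expression table. They were picked by systematic gene name, and the list was made with earlier results of these data known. The 41 are 33 nucleoporins or pore-bound factors, and 8 envelope proteins (APQ12, BRL1, BRR6, SRC1, also called HEH1, HEH2, NUR1, NEM1 and SPO7). RNA came from log-phase cultures of Saccharomyces cerevisiae grown at 30 °C in synthetic defined medium. The 3 vehicle samples received 0.095% ethanol and the 3 edelfosine samples received 20 uM edelfosine, a synthetic ether lipid related to lysophosphatidylcholine, in each case for 60 minutes. Replicates 1 and 2 of either treatment are of strain W303, and replicate 3 is of strain BY4741. These are common laboratory strains, and the labels give no further genotype, so BY4741 is represented by 1 library per treatment. Each library is named below by its treatment and replicate number, and values are listed in the order of replicates 1, 2 and 3.

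Nuclear pore complexes are large channels that cross the nuclear envelope where its inner and outer membranes fuse. A scaffold of outer rings (the Y complex), inner ring and membrane ring holds nucleoporins whose phenylalanine-glycine (FG) repeats fill the channel and bind transport receptors. Filaments on the cytoplasmic face take part in mRNA export, and a basket on the nuclear face receives cargo. The envelope is continuous with the endoplasmic reticulum, and its lipid supply is tied to the Nem1-Spo7 phosphatase, which activates the phosphatidate phosphatase Pah1.

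Levels were deposited as TPM, the length-corrected share of each transcript scaled to a fixed total per library, so read depth is unknown. TPM is a share of the poly(A) RNA of a culture, so a change in RNA per cell or in the number of cells cannot be told apart from it. Between 5550 and 5717 genes per library reached 1 TPM. The strain labels were checked on genes deleted in BY4741: MET17, LEU2 and URA3 lay at or below 0.0868 TPM in both BY4741 libraries and at 32.9 TPM or more in the 4 W303 libraries. The other strain markers read did not follow this pattern. HIS3 had 90.5 and 102 TPM in the BY4741 vehicle and edelfosine libraries, and 24.3 to 52.7 TPM in the W303 libraries. ADE2 and TRP1 were also higher in BY4741 than in W303 within each treatment. Libraries were put on a common scale with a trimmed mean of M values (TMM), and the scaling factors ran from 1.20 to 1.25 in edelfosine and from 0.715 to 0.891 in vehicle, without overlap. In TPM as deposited the median gene rose by 0.55 on the log2 scale, and after scaling it stood at 0.0088. A change given below on the scaled values is therefore a change relative to the median gene. Changes are log2 differences of scaled TPM + 1, edelfosine minus vehicle, with a standard error from limma (after ± or as SE) and strain as a term, and a gene is called at an adjusted p under 0.05 (Benjamini-Hochberg over all 5707 genes tested).

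All 41 genes passed the expression filter. Relative to the median gene, 15 of the 33 pore genes were called lower after edelfosine and 0 were called higher. The genes called higher, NUR1 and NEM1, encode envelope proteins. Of the 41, 17 were called lower and 2 were called higher, against a background of 27.3% of all tested genes lower and 27.3% higher. The 17 make up 41.5% of the 41, and the 2 make up 4.88%. The changes of 33 of the 41 genes were below 0, against 49.6% of all tested genes, and the median change was -0.39. This direction depends on the scaling: in TPM as deposited the median was 0.16, 9 of the 41 were called higher (background 49.7%) and 1, APQ12, was called lower (background 13.3%). The other genes called lower on scaled values did not pass on that scale, and NUP85, NIC96, NUP57, NUP2 and NUP60 were above 0 there. The median of the 41 lay 0.40 below the median of all tested genes in scaled values and 0.39 below it in TPM as deposited.

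In scaled TPM the groups did not overlap for 22 of the 41 genes with edelfosine lower (background 31.3%) and for 2 with edelfosine higher (background 30.3%). In TPM as deposited the groups did not overlap for 2 genes with edelfosine lower (background 14.3%) and for 14 with edelfosine higher (background 53.5%). Against a threshold of 1.5-fold, APQ12 was the only 1 of the 41 genes to pass, against 12.4% of all tested genes lower and 10.7% higher. Leaving out a single library moved the 17 genes called lower to 9, 5 and 6 without vehicle replicates 1, 2 and 3, and to 18, 11 and 6 without edelfosine replicates 1, 2 and 3. The share of all tested genes called lower in these fits was 19.5%, 19.3% and 21.3%, and 29.7%, 24.8% and 20.6%, in the same order. Without vehicle replicate 2, vehicle replicate 3 or edelfosine replicate 3, the 41 were thus called lower less often than all tested genes. In the other fits they were called lower more often. The 2 called higher became 0, 1 and 1, and 3, 2 and 1, in that order. The share of all tested genes called higher was 19.2%, 19.0% and 20.9%, and 29.8%, 25.4% and 21.6%. The summed TPM of the 41 genes was 731 ± 67.6 in vehicle and 897 ± 36.5 in edelfosine as deposited (SD, n = 3 each), and 900.1 ± 16.6 and 726 ± 35.4 after scaling. In either unit the groups did not overlap (two-sided exact permutation p = 0.1, the smallest that 3 against 3 libraries allow).

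**Figure D1:**
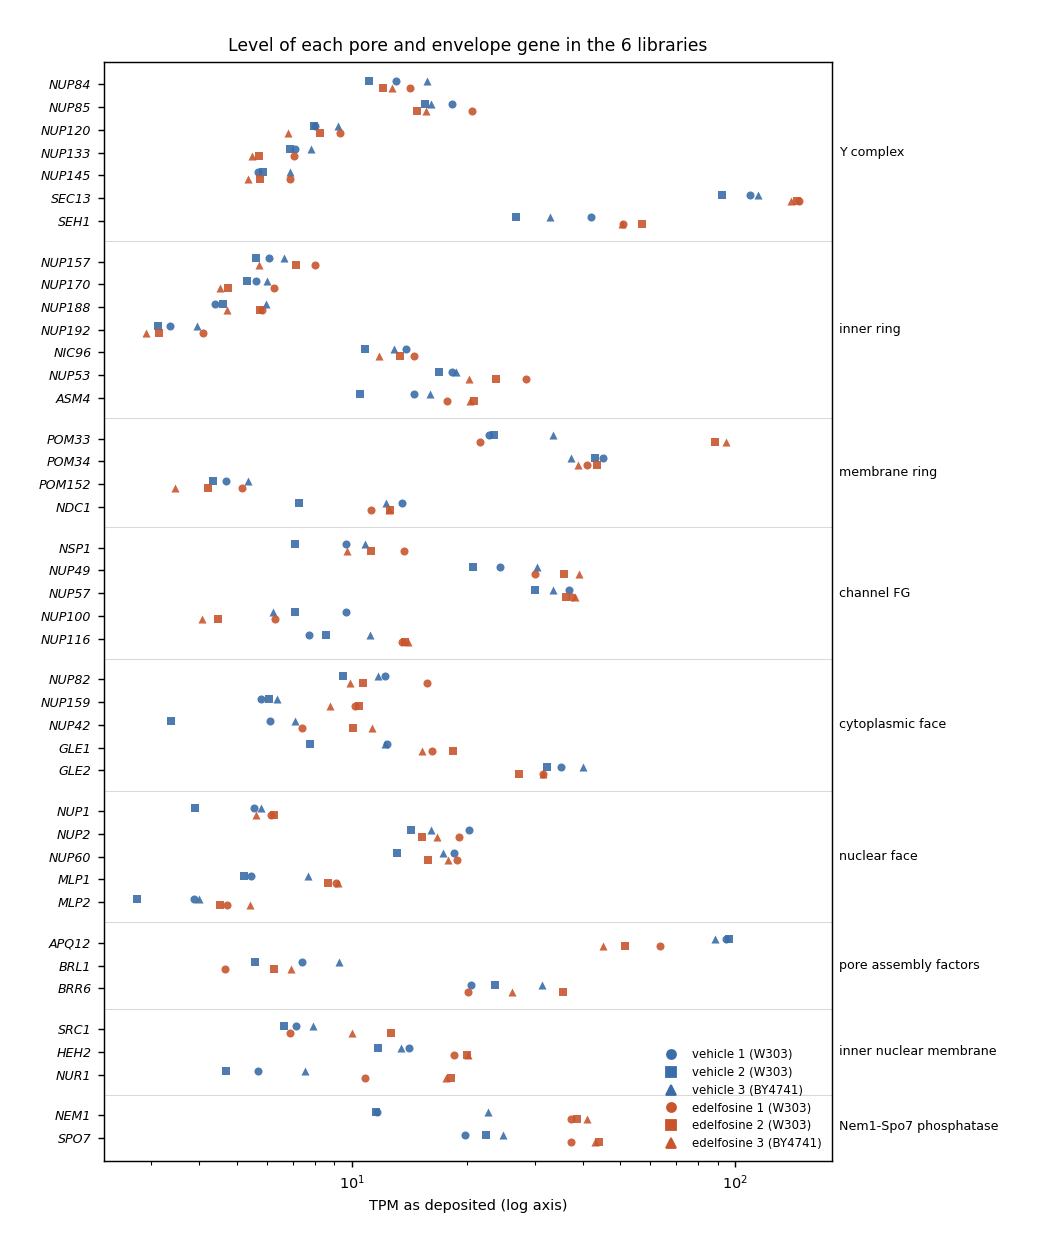
TPM as deposited (log axis) of each of the 41 genes in the 3 vehicle and 3 edelfosine libraries, grouped by sub-complex, with 1 point per library. SEC13, APQ12 and POM33 have the highest mean levels, and the colours overlap for most scaffold genes. On this scale 14 of the 41 genes separate with edelfosine higher (53.5% of all tested genes), NEM1, SPO7 and NUR1 among them.

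**Figure D2:**
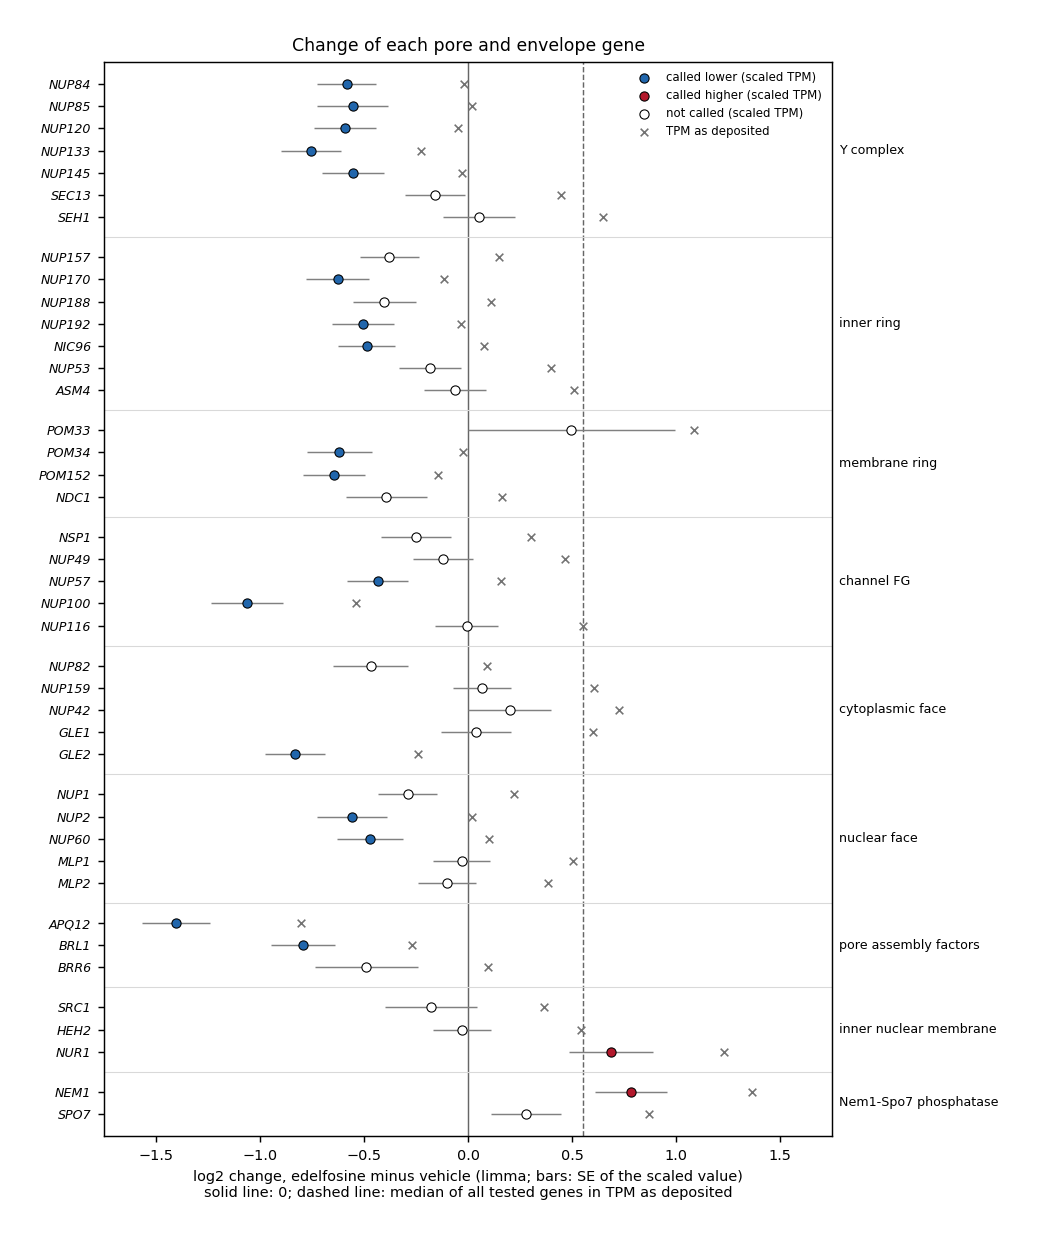
Log2 change of each gene (edelfosine minus vehicle) on scaled TPM, with standard error bars, and on TPM as deposited (crosses). Filled points were called in the limma test of scaled values. The 17 genes called lower lie between -1.41 and -0.43, and every cross lies to the right of its point. The dashed line at 0.55 is the median of all tested genes in TPM as deposited.

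The Y complex, the outer-ring scaffold, gave 5 of its 7 members called lower and 0 called higher (27.3% of all tested genes each way). Its median change was -0.55, or -0.017 in TPM as deposited, where 0 were called lower and SEH1 was called higher (13.3% and 49.7% of all tested genes). NUP133 (YKR082W), which encodes a stem subunit that binds curved membrane, had 7.10, 6.89 and 7.80 TPM in the vehicle libraries and 7.07, 5.73 and 5.47 TPM in the edelfosine libraries. As deposited these overlap, since edelfosine replicate 1 lies with the vehicle libraries. After scaling the mean went from 8.97 ± 0.576 to 4.92 ± 0.629 scaled TPM (SD, n = 3 each) with no overlap, and NUP133 fell by 0.76 (SE 0.15; adjusted p = 0.00575, limma).

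The other members called lower were close to each other in size. NUP120 fell by 0.59, NUP84 by 0.58, NUP85 by 0.55 and NUP145 by 0.55, with standard errors between 0.14 and 0.17 (adjusted p = 0.0139 to 0.0313, limma). NUP145 encodes a precursor that is cleaved into an FG nucleoporin and a Y-complex subunit. Its level was 5.68, 5.87 and 6.90 TPM in vehicle and 6.91, 5.76 and 5.36 TPM in edelfosine, with overlap as deposited. The calls of NUP84, NUP85, NUP120 and NUP145 were each lost when a single library was left out: vehicle replicate 1 (adjusted p = 0.0571 for NUP84 and 0.110 for NUP85), vehicle replicate 2 (0.0570 to 0.110), vehicle replicate 3 (0.0778 to 0.103), edelfosine replicate 2 (0.0602 for NUP145 and 0.0967 for NUP85) or edelfosine replicate 3 (0.0982 to 0.126). The call of NUP133 held in all 6 such fits (adjusted p up to 0.0429), and was lost without replicate 2 of both treatments.

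The remaining Y-complex genes, SEC13 and SEH1, encode small beta-propellers that also serve outside the pore, Sec13 in the COPII coat of secretory vesicles and both in the SEA complex, which regulates TORC1. SEC13 was the most abundant of the 41 transcripts, with 109, 92.4 and 115 TPM in vehicle and 146, 144 and 139.6 TPM in edelfosine. All 3 edelfosine libraries lay above the vehicle libraries as deposited and all 3 lay below them after scaling, with a change of -0.16 ± 0.14 (adjusted p = 0.378, limma). SEH1 stood at 42.0, 26.7 and 32.8 TPM in vehicle and 50.8, 56.9 and 50.6 TPM in edelfosine, again without overlap as deposited. Its change was 0.052 ± 0.17 on scaled values (adjusted p = 0.817) and 0.65 in TPM as deposited (adjusted p = 0.0304, limma). As deposited, 53.5% of all tested genes were higher in edelfosine without overlap.

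NUP133 and NUP145 are the members called lower whose upstream region held both of a pair of motifs that are known from promoters of ribosome biogenesis genes, PAC (GATGAG) and RRPE (AAAAATTTT), so those stretches are shown. PAC was found for 5 of the 17 genes called lower and 7 of the 22 not called, and for 19.2% of all upstream regions. RRPE was found for 3 of the 17 and 2 of the 22, and for 7.43% of all upstream regions. The share of all upstream regions that held both motifs was not counted, and a role of the motifs was not tested. Sequences are from the RefSeq R64 genome, each on the strand of its gene, with the motif in capitals. A PAC site on the opposite strand reads CTCATC. The windows of the proximal PAC and the RRPE of NUP133 share bases, and the motifs themselves do not. The NUP133 sites lie at chrXI:592582-592607, chrXI:592645-592670 and chrXI:592662-592690 (plus strand), and their centres are 230, 167 and 149 bases upstream of the start codon. Those of NUP145 lie at chrVII:337665-337690 and chrVII:337750-337778 (plus strand), 228 and 142 bases upstream.
NUP133 PAC, distal: ttcaatacaaCTCATCgatataccaa
NUP133 PAC, proximal: cgatccttagCTCATCgcaaaaaaat
NUP133 RRPE: caaaaaaatgAAAAATTTTcaaatcgtat
NUP145 PAC: ctagtaatatCTCATCactttttttt
NUP145 RRPE: aaaagctcgaAAAAATTTTggacaaaaac

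The inner ring had 3 of 7 members called lower and 0 higher (27.3% of all tested genes each way), and all 7 changes were below 0 on scaled values. Its median was -0.40, and 0.11 in TPM as deposited, where 0 of the 7 were called (13.3% of all tested genes lower and 49.7% higher). NUP170, which encodes a large scaffold subunit, had 5.61, 5.31 and 5.99 TPM in vehicle and 6.25, 4.75 and 4.52 TPM in edelfosine. The groups overlap as deposited and separate after scaling, and NUP170 fell by 0.63 (SE 0.15; adjusted p = 0.0131, limma). NUP192, the largest inner-ring gene by coding length (5052 bases) and the least abundant of the 41 transcripts, fell by 0.51 on scaled values (adjusted p = 0.0276, limma). As deposited it had 3.34, 3.11 and 3.95 TPM in vehicle and 4.08, 3.14 and 2.90 TPM in edelfosine, which overlap. NIC96, whose product anchors the channel FG complex, fell by 0.49 (adjusted p = 0.0227, limma).

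The other scaffold genes NUP157 and NUP188 had changes of -0.38 ± 0.14 and -0.40 ± 0.15 (adjusted p = 0.0622 and 0.0642, limma). NUP157 was called lower without edelfosine replicate 1 (adjusted p = 0.0361). The membrane-binding linkers NUP53 and ASM4 lay nearer to the median gene, at -0.18 ± 0.15 and -0.064 ± 0.15 (adjusted p = 0.331 and 0.739). Both linkers, in TPM as deposited, were higher in every edelfosine library than in any vehicle library, NUP53 with 18.2, 16.8 and 18.6 TPM in vehicle and 28.4, 23.8 and 20.2 TPM in edelfosine, without being called (0.107 and 0.0627). The same separation held for 53.5% of all tested genes. NUP170 did not pass in fits lacking vehicle replicate 2, vehicle replicate 3 or edelfosine replicate 3 (adjusted p = 0.0649 to 0.0817). The calls of NUP192 and NIC96 were lost without any library other than edelfosine replicate 1 (0.0635 to 0.158 and 0.0668 to 0.119).

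In the membrane ring, which anchors the pore in the envelope, 2 of 4 members were called lower and 0 higher (27.3% of all tested genes each way). POM34 had 45.2, 43.2 and 37.3 TPM in vehicle and 40.9, 43.5 and 38.9 TPM in edelfosine, nearly the same range as deposited, and fell by 0.62 on scaled values (adjusted p = 0.0160, limma). POM152 fell by 0.64 on scaled values (adjusted p = 0.0117). Its deposited levels overlapped, with 4.71, 4.35 and 5.34 TPM in vehicle and 5.16, 4.21 and 3.46 TPM in edelfosine. NDC1, whose product also works at the spindle pole body, was at -0.39 ± 0.20 and was not called (adjusted p = 0.132). Its value was -0.21 without vehicle replicate 1. POM34 did not pass in the fits lacking vehicle replicate 1 or 2 (adjusted p = 0.0622 and 0.0721), nor did POM152 in those lacking vehicle replicate 2, vehicle replicate 3 or edelfosine replicate 3 (0.0542 to 0.0845).

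POM33, which encodes a transmembrane protein involved in pore distribution and assembly, stood apart from the rest of the ring. It had 22.7, 23.5 and 33.3 TPM in vehicle and 21.6, 88.3 and 94.3 TPM in edelfosine. Edelfosine replicates 2 and 3 were far above every vehicle library, while edelfosine replicate 1 was below all of them. The change was 0.50 ± 0.50 and was not called (adjusted p = 0.429, limma). Without edelfosine replicate 1 it was 1.14 ± 0.18 (adjusted p = 0.000980), so this library decides the value. Replicates 2 and 3 belong to different strains. With POM33 in place, the ring's median was -0.51, and 0.071 in TPM as deposited.

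The channel FG genes gave 2 of 5 members called lower (27.3% of all tested genes), with a median of -0.25 (0.30 in TPM as deposited). NUP100, which encodes a nucleoporin with GLFG-type repeats, had 9.63, 7.12 and 6.22 TPM in vehicle and 6.31, 4.47 and 4.07 TPM in edelfosine. As deposited edelfosine replicate 1 overlaps the BY4741 vehicle library by a narrow margin, and after scaling all edelfosine libraries lie lower. NUP100 fell by 1.06 (SE 0.17; adjusted p = 0.00320, limma), the steepest fall among the nucleoporins, and its call held without any single library (adjusted p up to 0.0234). As deposited its change was -0.54 and did not pass (adjusted p = 0.0553).

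Its paralogue NUP116, also of the GLFG type, had 7.73, 8.57 and 11.2 TPM in vehicle and 13.5, 13.8 and 14.0 TPM in edelfosine. The NUP116 change was -0.006 ± 0.15 on scaled values (adjusted p = 0.977). In TPM as deposited it was 0.55 and called higher (adjusted p = 0.0356, limma), as were 49.7% of all tested genes. The other 3 channel genes encode the subunits of the Nsp1 complex, the core of the channel. NUP57 fell by 0.43 (adjusted p = 0.0442, limma), NSP1 was at -0.25 ± 0.17 and NUP49 at -0.12 ± 0.14. The call of NUP57 was lost in each of the 6 fits that left out a single library (adjusted p = 0.0678 to 0.148), and NSP1 and NUP49 were not called (adjusted p = 0.251 and 0.508). NSP1 was at -0.077 without edelfosine replicate 3 and at -0.11 without vehicle replicate 3.

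Ratios of paralogues were taken within each library from TPM as deposited, so that a scaling factor cancels apart from the added 1, and 6 pairs were compared. The log2 ratio of NUP100 to NUP116 (TPM + 1) was 0.28, -0.24 and -0.75 in vehicle and -0.99, -1.43 and -1.56 in edelfosine, with no overlap and a mean difference of -1.09. The ratio of NUP157 to NUP170 was 0.10, 0.072 and 0.13 in vehicle and 0.31, 0.50 and 0.28 in edelfosine, a difference of 0.26 with no overlap. With 0.1 or 5 added in place of 1 the difference was -1.22 or -0.76 for NUP100 to NUP116 and 0.30 or 0.17 for NUP157 to NUP170, again with no overlap. For these pairs the two-sided exact permutation test gave p = 0.1, the smallest that 3 against 3 libraries allow, and 0.3 after Benjamini-Hochberg adjustment over the 6 pairs. The groups overlapped for NUP53 to ASM4, MLP1 to MLP2, BRL1 to BRR6 and SRC1 to HEH2, with differences between -0.37 and 0.12 (exact permutation p = 0.3 to 0.6, adjusted p = 0.6).

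**Figure D3:**
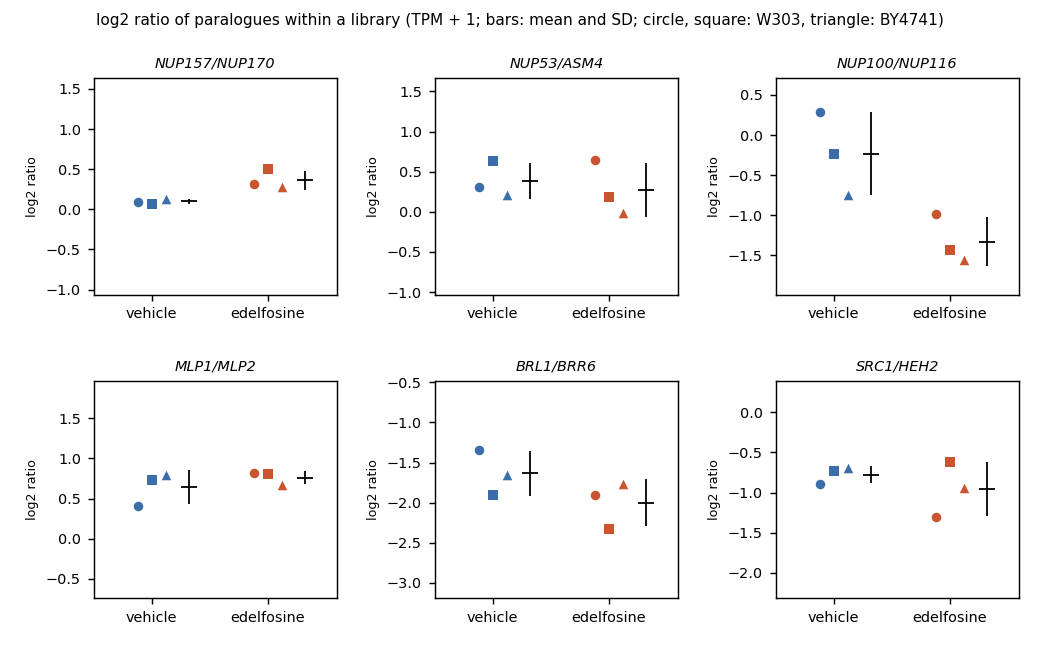
Log2 ratio of TPM + 1 between paralogues in each library, for 6 pairs, with the mean and SD beside the points of each treatment. Each panel spans the same number of log2 units. The NUP100/NUP116 ratio is at most -0.99 in the edelfosine libraries and at least -0.75 in the vehicle libraries.

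On the cytoplasmic face, where the mRNA export helicase Dbp5 is docked and activated, 1 of 5 members was called lower and 0 higher (27.3% of all tested genes each way). The median was 0.038, and 0.60 in TPM as deposited. GLE2, which encodes a WD40-repeat partner of Nup116, had 35.0, 32.3 and 40.0 TPM in vehicle and 31.5, 27.2 and 31.5 TPM in edelfosine. All 3 edelfosine libraries were lower as deposited as well as after scaling, where the mean went from 44.1 ± 1.68 to 24.3 ± 2.35 scaled TPM. GLE2 fell by 0.83 (SE 0.14; adjusted p = 0.00393, limma), and its call held without any single library (adjusted p up to 0.0276). As deposited the change of -0.24 did not pass (adjusted p = 0.250).

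GLE1, which encodes the Dbp5 activator, and the FG genes NUP42 and NUP159 lay near the median gene, at 0.038 ± 0.17, 0.20 ± 0.20 and 0.067 ± 0.14 (adjusted p = 0.861, 0.425 and 0.711, limma). NUP42 had 6.11, 3.37 and 7.08 TPM in vehicle and 7.39, 10.04 and 11.3 TPM in edelfosine. NUP159 had 5.79, 6.06 and 6.39 TPM in vehicle and 10.2, 10.4 and 8.78 TPM in edelfosine. Both were higher in every edelfosine library as deposited and were called higher on that scale (0.73 and 0.61; adjusted p = 0.0339 and 0.0220). Of all tested genes 53.5% were higher without overlap and 49.7% were called higher there. NUP82, the platform that holds Nup159, was at -0.47 ± 0.18 (adjusted p = 0.0669) and was called lower without edelfosine replicate 1 (adjusted p = 0.00775).

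On the nuclear face 2 of 5 members were called lower and 0 higher (27.3% of all tested genes each way), and the median was -0.29 (0.22 in TPM as deposited). NUP2, which encodes a mobile FG nucleoporin that binds importin alpha, and NUP60, which encodes its anchor at the basket, fell by 0.56 and 0.47 (adjusted p = 0.0308 and 0.0418, limma). NUP2 had 20.2, 14.3 and 16.0 TPM in vehicle and 19.0, 15.3 and 16.6 TPM in edelfosine, and NUP60 had 18.5, 13.1 and 17.3 TPM and 18.8, 15.8 and 17.8 TPM. As deposited both genes have nearly the same range in the 2 treatments. Both calls were lost without any library other than edelfosine replicate 1 (adjusted p = 0.0626 to 0.123 and 0.0866 to 0.154). The FG gene NUP1 was at -0.29 ± 0.14, and the basket filament genes MLP1 and MLP2 were at -0.031 ± 0.14 and -0.10 ± 0.14, with none of the 3 called (adjusted p = 0.126, 0.862 and 0.567). MLP1 was called higher in TPM as deposited (0.50; adjusted p = 0.0480, limma), as were 49.7% of all tested genes.

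The 3 envelope proteins that take part in pore assembly and membrane composition gave 2 members called lower and 0 higher (27.3% of all tested genes each way). Their median was the lowest of the 9 groups, -0.79. It was -0.27 in TPM as deposited. APQ12 (YIL040W), which encodes a short protein of the envelope and endoplasmic reticulum with a coding length of 417 bases, had 94.7, 96.3 and 88.7 TPM in vehicle and 63.7, 51.4 and 45.2 TPM in edelfosine. Every edelfosine library lay below every vehicle library as deposited, and after scaling the mean went from 116 ± 17.6 to 43.2 ± 6.92 scaled TPM. APQ12 fell by 1.41 (SE 0.16; adjusted p = 0.00116, limma), the largest fall of the 41, and 11.2% of all tested genes had a lower change. Its call held under every alternative that was run, TPM as deposited included (-0.80; adjusted p = 0.00560).

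BRL1 and BRR6 encode paralogous membrane proteins that bind Apq12. BRL1 fell by 0.79 (SE 0.16; adjusted p = 0.00602, limma). As deposited it had 7.41, 5.60 and 9.27 TPM in vehicle and 4.66, 6.25 and 6.95 TPM in edelfosine. Those values overlap, with edelfosine replicates 2 and 3 above vehicle replicate 2, and they separate after scaling. The call of BRL1 held without any single library (adjusted p up to 0.0370) and not in TPM as deposited (-0.27; adjusted p = 0.282). BRR6 had 20.4, 23.6 and 31.4 TPM in vehicle and 20.1, 35.5 and 26.1 TPM in edelfosine, with edelfosine replicate 2 above all others. Its change was -0.49 ± 0.25 (adjusted p = 0.135), and it was called lower without edelfosine replicate 2 (-0.70; adjusted p = 0.0205, limma).

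Of the 3 inner nuclear membrane genes, 1 was called higher and 0 lower (27.3% of all tested genes each way). NUR1, which encodes a membrane protein that with Heh1 tethers ribosomal DNA to the envelope, had 5.68, 4.69 and 7.54 TPM in vehicle and 10.8, 18.2 and 17.6 TPM in edelfosine. All 3 edelfosine libraries were higher, replicate 1 by the smallest margin, and NUR1 rose by 0.69 ± 0.20 (adjusted p = 0.0279, limma), or by 1.23 in TPM as deposited (adjusted p = 0.00331). On scaled values it did not pass in fits lacking any vehicle library or edelfosine replicate 3 (adjusted p = 0.0779 to 0.107). The LEM-like domain genes SRC1 (HEH1) and HEH2, which encode proteins that bind chromatin and surveil pore assembly, were at -0.18 ± 0.22 and -0.029 ± 0.14 and were not called (adjusted p = 0.523 and 0.877). SRC1 had 7.13, 6.65 and 7.91 TPM in vehicle and 6.88, 12.6 and 10.02 TPM in edelfosine, and HEH2 had 14.1, 11.7 and 13.5 TPM and 18.5, 20.0 and 20.1 TPM. Edelfosine replicate 1 was within the vehicle range for SRC1, and all edelfosine libraries were higher for HEH2 as deposited, where HEH2 was called higher (0.55; adjusted p = 0.0325, limma). As deposited, 53.5% of all tested genes were higher without overlap and 49.7% were called higher.

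The upstream regions of all 3 inner nuclear membrane genes held the stress response element (STRE, AGGGG), which the general stress factors Msn2 and Msn4 are known to bind, and are shown for that reason. STRE was found for 12.2% of the 41 genes, against 22.0% of all upstream regions. A role of the motif in these changes was not tested. The NUR1 site lies at chrIV:296673-296697 (plus strand), 135 bases upstream of the start codon, that of SRC1 at chrXIII:209311-209335 (plus strand), 202 bases upstream, and that of HEH2 at chrIV:1382201-1382225 (minus strand), 167 bases upstream. The motif is in capitals, on the strand of the gene in RefSeq R64, and reads CCCCT where it is on the opposite strand.
NUR1 STRE: ccgtattaaaAGGGGtgaggccgtt
SRC1 STRE: tttaggaagcCCCCTttgtttttgt
HEH2 STRE: ctgtatgcgtAGGGGaagggatagt

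Both genes of the Nem1-Spo7 phosphatase were higher in every edelfosine library as deposited, as were 53.5% of all tested genes. On scaled values 1 of the 2 was called higher (27.3% of all tested genes), and the groups overlapped for SPO7. NEM1 (the catalytic subunit, YHR004C) had 11.6, 11.6 and 22.6 TPM in vehicle and 37.3, 38.7 and 41.1 TPM in edelfosine. The BY4741 vehicle library was above both W303 vehicle libraries, and the 3 edelfosine libraries lay close together. NEM1 rose by 0.78 ± 0.17 (adjusted p = 0.00964, limma), and 80.5% of all tested genes had a lower change. It just missed the threshold in the fit lacking vehicle replicate 1 (adjusted p = 0.0502) and passed in the other 5. The call of NEM1 was also lost without replicate 2 of both treatments. SPO7, the regulatory subunit, had 19.7, 22.4 and 24.7 TPM in vehicle and 37.3, 44.0 and 43.0 TPM in edelfosine, and its change was 0.28 ± 0.17 on scaled values (adjusted p = 0.203) and 0.87 in TPM as deposited (adjusted p = 0.00435, limma). Without vehicle replicate 1 the scaled value of SPO7 was 0.18. The pair had a median of 0.53, above 0 under each of the 5 scalings.

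The substrate of this phosphatase, PAH1, which encodes the phosphatidate phosphatase, had 3.69, 2.41 and 3.74 TPM in vehicle and 9.68, 14.6 and 11.8 TPM in edelfosine without overlap. PAH1 rose by 1.09 ± 0.19 (adjusted p = 0.00404, limma), and passed in TPM as deposited as well (adjusted p = 0.00101). DGK1, which encodes the diacylglycerol kinase of the opposite reaction and was picked for display after its values were seen, had 34.4, 27.2 and 27.9 TPM in vehicle and 28.7, 30.5 and 27.9 TPM in edelfosine. DGK1 fell by 0.62 on scaled values (adjusted p = 0.0128, limma), which did not pass once vehicle replicate 1 or 2 was left out (adjusted p = 0.0629 and 0.0554) or in TPM as deposited (-0.031; adjusted p = 0.885).

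**Figure D4:**
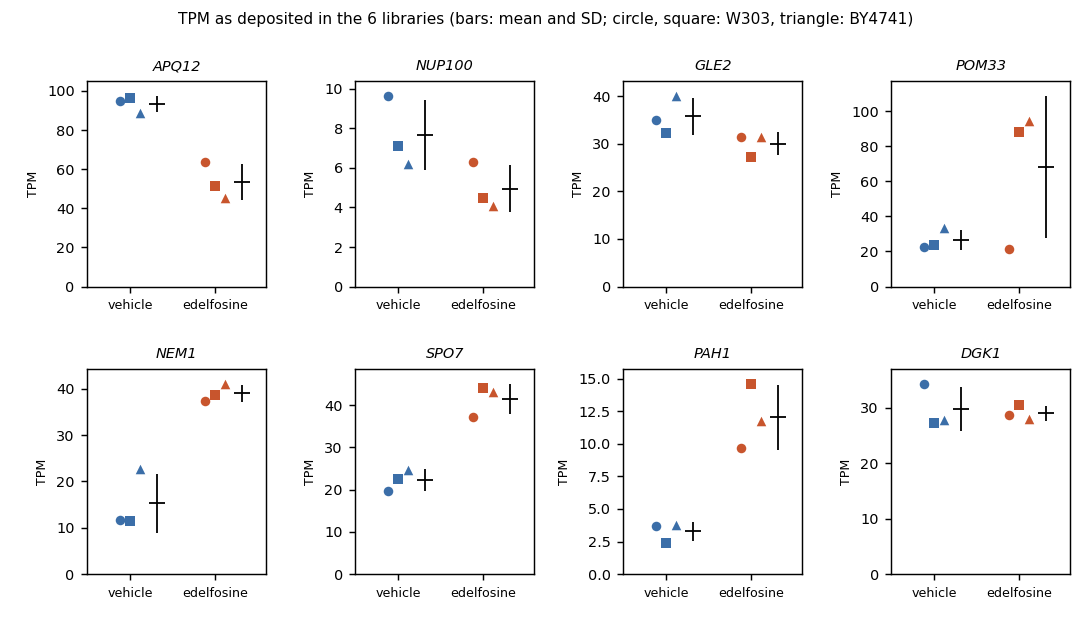
TPM as deposited in each library for 8 genes, with the mean and SD (n = 3) beside the points of each treatment and axes that start at 0. APQ12 and GLE2 are lower in every edelfosine library, NEM1, SPO7 and PAH1 are higher in every one, and POM33 is split between edelfosine replicate 1 and replicates 2 and 3. DGK1 and NUP100 overlap on this scale, where 53.5% of all tested genes are higher in edelfosine without overlap.

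**Figure D5:**
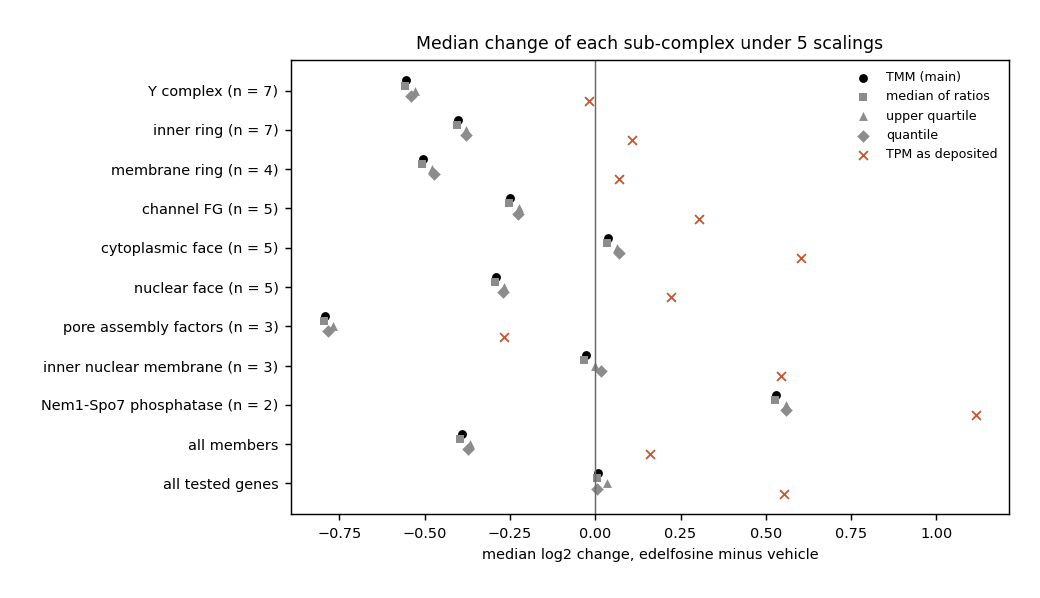
Median log2 change of each sub-complex, of all 41 genes and of all 5707 tested genes under 5 scalings. TPM as deposited shifts every median upwards, that of all tested genes to 0.55, and turns those of the inner ring, membrane ring, channel, nuclear face and inner nuclear membrane above 0. The inner nuclear membrane median is also above 0 with quantile normalization (0.018). The Nem1-Spo7 pair is above all other groups and the pore assembly factors are below all others under each scaling.

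The order of the sub-complexes was not tested, since members are not replicates. Relative to all tested genes the medians of the Y complex and the pore assembly factors lay -0.56 and -0.80 away in scaled values, and -0.57 and -0.82 away in TPM as deposited. Within single same-numbered pairs the median of all 41 genes was -0.31, -0.29 and -0.37. The Y complex (-0.33, -0.67 and -0.68), inner ring (-0.24, -0.41 and -0.56), membrane ring (-0.68, -0.36 and -0.36), channel (-0.28, -0.14 and -0.23), nuclear face (-0.37, -0.10 and -0.36) and pore assembly factors (-1.07, -0.56 and -0.75) were below 0 in all 3. The cytoplasmic face was below 0 in each (-0.21, -0.025 and -0.10), although the median of its fitted changes was 0.038. The inner nuclear membrane genes differed in sign between pairs (-0.19, 0.10 and 0.14), and the Nem1-Spo7 genes were above 0 in each (0.68, 0.52 and 0.39).

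By limma, 0 of the 41 genes differed between BY4741 and W303 with treatment as a term (1 at an unadjusted p under 0.05; 0.421% of all tested genes were called), and 0 had a strain by treatment interaction (0 at an unadjusted p under 0.05; 0.0% of all tested genes were called). The gene with the smallest p between strains was NEM1, higher in BY4741 by 0.44 ± 0.18 (adjusted p = 0.433). Its interaction was -0.55 ± 0.33. With 1 BY4741 library per treatment the interaction rests on 2 residual degrees of freedom.

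The genes that work with the pore were read from lists of transport receptors, the Ran cycle, mRNA export, other envelope genes, and the coats that share Sec13 and Seh1. Of 15 karyopherins, the carriers of proteins and tRNA through the channel, 7 were called lower and 0 higher (27.3% of all tested genes each way). KAP123, the main importer of ribosomal proteins, fell by 1.98, from 11.6, 9.18 and 12.1 TPM in vehicle to 5.27, 2.83 and 2.28 TPM in edelfosine, and it also fell in TPM as deposited (-1.47; adjusted p = 0.00292, limma). The importin genes PSE1, NMD5 and KAP122 fell by 1.03, 0.80 and 0.70 (adjusted p = 0.00660, 0.00479 and 0.00620), and none of these 3 passed in TPM as deposited (adjusted p = 0.122, 0.179 and 0.244, limma). KAP123 and these 3 kept their calls on scaled values without any single library. Each other call in the list was lost in such a fit (adjusted p up to 0.151, limma). The median of the list was -0.36, and 0.19 in TPM as deposited, where 1 was called lower and 1 higher (13.3% and 49.7% of all tested genes).

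In the Ran cycle, which gives nuclear transport its direction, 6 of 9 genes were called lower and 2 higher (27.3% of all tested genes each way), with a median of -0.81. In deposited values 3 were lower and 3 higher (13.3% and 49.7% of all tested genes), with a median of -0.22. The Ran gene GSP1 had 214, 183 and 284 TPM in vehicle and 168, 112 and 144 TPM in edelfosine and fell by 1.28 (adjusted p = 0.00283, limma). Its paralogue GSP2 moved the other way, from 21.5, 14.3 and 31.0 TPM to 209.7, 333 and 308 TPM, and rose by 3.05 ± 0.23 (adjusted p = 0.000375). These genes encode nearly the same protein, so reads that fit both could be split between them, and values of either are uncertain to that extent. NTF2, the importer of Ran, and MOG1, a Ran-binding factor, fell by 1.24 and 1.21 (adjusted p = 0.00324 and 0.00274). GSP1, GSP2, NTF2 and MOG1 kept these calls in TPM as deposited (-0.67, 3.65, -0.63 and -0.61) and without any single library. Some of the other calls in the list were lost when a single library was left out (adjusted p up to 0.112, limma).

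Of 18 mRNA export genes 4 were called lower and 2 higher (27.3% of all tested genes each way), with a median of -0.099. In deposited values 0 were lower and 8 higher (13.3% and 49.7% of all tested genes), and the median was 0.37 where that of all tested genes was 0.55. The helicase gene SUB2 fell by 1.04, DBP5 by 0.85, YRA1 by 0.76 and THP2 by 0.71 (adjusted p = 0.00274 to 0.00991, limma), and none of the 4 passed in TPM as deposited (adjusted p = 0.0618 to 0.557). Without edelfosine replicate 3 the call of THP2 was lost (adjusted p = 0.0508). Both higher calls on scaled values were lost in some of the fits that left out a single library (adjusted p up to 0.145, limma). Of 22 other envelope and pore-associated genes 2 were called lower and 4 higher (27.3% of all tested genes each way), with a median of 0.20. In deposited values 0 were lower and 16 higher (13.3% and 49.7% of all tested genes), with a median of 0.77. Not every call on scaled values in this list held without each single library (adjusted p up to 0.124, limma). ATG39, a receptor for autophagy of the nucleus, rose by 2.05 ± 0.30 from 1.89, 2.27 and 6.83 TPM in vehicle to 15.5, 30.9 and 28.3 TPM in edelfosine, with the BY4741 vehicle library above the W303 ones. ESC1, an anchor of silent chromatin, rose by 0.79 ± 0.14, and the spindle pole gene BBP1 fell by 0.80 (adjusted p = 0.00405 and 0.00396, limma), the latter not in TPM as deposited (adjusted p = 0.230).

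For the assemblies that share Sec13 and Seh1 with the pore the counts were small. Of 7 COPII coat genes SFB2 was called lower (-0.53 ± 0.16; adjusted p = 0.0284, limma) and 0 higher, and of 6 SEA complex genes NPR2 and RTC1 were called higher (0.48 ± 0.13 and 0.39 ± 0.13; adjusted p = 0.0204 and 0.0402) and 0 lower, against 27.3% of all tested genes each way. The call of SFB2 was lost without any library other than edelfosine replicate 1 (adjusted p = 0.0650 to 0.170), that of NPR2 without any vehicle library or edelfosine replicate 3 (0.0620 to 0.080), and that of RTC1 without any single library (0.0515 to 0.125). On the deposited scale 4 of the 7 and 5 of the 6 were called higher, against 49.7% of all tested genes, and SFB2 was at -0.010.

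Some properties that the choice of genes did not use were also compared. The median coding length of the 41 genes was 2142 bases, against 1218 bases for all tested genes. After a trend on coding length was removed from each library the counts were again 17 lower and 2 higher, with a median of -0.36. Of the 5701 genes tested in that fit, 1569 were lower and 1618 higher. The median vehicle level was 11.0 TPM, against 15.3 TPM for all tested genes. The genes lie on 13 chromosomes, and in R64 none of their coding regions overlapped that of another gene in the table.

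Motifs were searched on both strands in the 300 bases upstream of each start codon in R64, and 10 motifs were tried after the expression values were known. PAC was found for 12 of the 41 genes (29.3%, against 19.2% of all 5910 upstream regions), in 5 of the 17 genes called lower and in 7 of the 22 not called. RRPE was found for 5 (12.2% against 7.43%), in 3 of the 17 and 2 of the 22, and AAAATTTT, which every RRPE match contains, was found for the same 5 (9.46% of all). STRE was found for 5 (12.2% against 22.0%): in 0 of the 17 called lower, in NUR1 of the 2 called higher, and in POM33, BRR6, SRC1 and HEH2 among those not called. TTACCCG, a core of the Reb1 site, was found for 9 (22.0% against 7.99%), in 1 of the 17 called lower and 8 of the 22 not called. The remaining motifs were TATAAA (14 of 41; 48.5% of all), CGCGAAA (2; 3.98%), CACGTG (2; 3.55%), ACGCGT (1; 3.54%) and GGTGGCAAA (0; 1.22%). A match describes the letters of this window and not a bound site, and APQ12, NUP100 and NEM1 held none of PAC, RRPE and STRE there.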

How the data were processed

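The deposited table gives a level for every gene in every library. Although it is titled as read counts, its values are not whole and each library sums to the same total, so the authors' deposited values are taken as TPM. Kallisto, which quantifies transcripts by pseudoalignment, and sleuth are the tools listed, per the submitters' processing notes, and neither the transcript set nor the build is given in the sources used here. Per the labels' protocols, hot acid phenol RNA was poly(A) selected before library preparation. TPM keeps no depth, so no counting interval can be given.

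Of 5917 rows, 5911 matched an R64 locus tag, which gave symbols and coding lengths. The 5707 rows that reached 1 TPM in 3 or more libraries were tested. Scaling was by TMM without weights, trimming 30% of M and 5% of A values, and log2(scaled TPM + 1) was fitted in limma 3.58.1 (R 4.3.3) with strain and treatment, a mean-variance trend, Benjamini-Hochberg adjustment and 3 residual degrees of freedom. The added 1 makes log2 differences of low genes too small. Exact permutation tests used scipy 1.17.1. The fit was tested on simulated data. The labels call the replicates biological without naming separate cultures, so p-values refer to the spread between these libraries. In limma the variance of each gene was also drawn towards a trend over all tested genes. This added 3.41 prior degrees of freedom to the 3 residual ones. Genes and lists were chosen with earlier results of these data known: all 41 genes may be named, all strain markers, and of each pathway list up to 4 called genes with the smallest adjusted p. Motifs were chosen after the values were seen.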

Additional observations from a re-analysis of the deposited data

How the results depend on the processing

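The scaling sets the direction. In TPM as deposited the counts were 1 lower and 9 higher, the median of the 41 genes was 0.16, and the changes of 21 genes turned above 0: NUP85 0.021, SEC13 0.45, NUP157 0.15, NUP188 0.11, NIC96 0.078, NUP53 0.40, ASM4 0.51, NDC1 0.17, NSP1 0.30, NUP49 0.47, NUP57 0.16, NUP116 0.55, NUP82 0.092, NUP1 0.22, NUP2 0.018, NUP60 0.10, MLP1 0.50, MLP2 0.39, BRR6 0.097, SRC1 0.36 and HEH2 0.55. The summed level rose by 166 TPM as deposited and fell by 174 after TMM scaling. With median-of-ratios, upper-quartile and quantile scaling 15 to 17 genes were lower and 2 higher. Of all 5707 tested genes 1503 to 1563 were lower and 1550 to 1612 higher under these scalings. Genes near 0 changed sign, without a call: NUP116 with upper quartile (0.020), quantile normalization (0.032) and the length trend removed (0.018), HEH2 with quantile normalization (0.018) and MLP1 with the length trend removed (0.0096).

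With at least 10 TPM in 3 libraries 25 of the 41 genes were tested, 9 were lower and the median was -0.25. Of the 4066 genes tested in that fit, 1216 were lower. The median was -0.43 with a pseudocount of 0.1 and -0.24 with 5, and against 1.5-fold 1 gene was lower and 0 higher. In W303 libraries only, which is the same as leaving out replicate 3 of both treatments, 6 were lower and 1 higher with a median of -0.27, and NUP116 and MLP1 were at 0.056 and 0.044. Of the 5583 genes tested in W303 only, 1173 were lower and 1166 higher. Without single libraries or single replicate numbers the counts ran from 4 to 18 lower and from 0 to 3 higher, with medians from -0.38 to -0.26. Over all tested genes, 1458 of 5614 were lower and 1461 higher without replicate 1 of both treatments. Without replicate 2 of both treatments these were 1038 of 5620 lower and 987 higher. Genes that changed sign without single libraries, with their ranges there and no call, were SEH1 -0.051 to 0.19, ASM4 -0.13 to 0.0021, NUP116 -0.12 to 0.077, NUP159 -0.012 to 0.13, GLE1 -0.10 to 0.14, MLP1 -0.087 to 0.056, SRC1 -0.34 to 0.057 and HEH2 -0.11 to 0.027. Without single replicate numbers they were ASM4 0.057, SRC1 0.022, HEH2 0.061, SEH1 -0.050, NUP116 0.058, NUP42 -0.019, GLE1 -0.13, NUP116 0.056 and MLP1 0.044 (numbers 1, 1, 1, 2, 2, 2, 2, 3 and 3). Such fits have fewer residual degrees of freedom.

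Same-numbered libraries share a strain. Their deviations from the treatment means correlated over genes at r = 0.33, 0.052 and 0.51 for numbers 1, 2 and 3. Those of vehicle replicate 2 and edelfosine replicate 1 correlated at 0.32. The strain difference was left in these deviations, so the values cannot show whether the numbers are pairs. The main fit took strain as a term and did not take the numbers as pairs. With a replicate block 16 genes were lower and 2 higher, the call of NUP57 being lost, and of all tested genes 1529 were lower and 1488 higher. No filter on low values, no strain term and no mean-variance trend gave 17 lower and 2 higher each. In these fits 1503 to 1558 of all tested genes were lower and 1434 to 1542 higher.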
